A study of Mus musculus with 714 samples.

Results

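The comparison set all cells of the mouse uterine epithelium labelled postnatal day 56 (pnd56) against all cells labelled pnd28. The age label alone chose them, which gave 45 pnd56 cells and 56 pnd28 cells out of 714 cells in the series. All came from the uterus of ICR mice, an outbred strain, and had been sorted for CD326 (EpCAM), a surface protein of epithelial cells. The labels name no treatment, no animal and no stage of the oestrous cycle. Each cell had been sequenced by CEL-seq, which reads the 3′ end of each transcript after linear amplification.

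At pnd28 a mouse is near puberty, and at pnd56 it is a young adult with ovarian cycles. The uterine epithelium has a luminal sheet and glands that open into it. Oestradiol makes the luminal cells grow and secrete, with the Sprr2 genes, lactoferrin (Ltf) and mucins among its known targets, and the glands secrete proteases, protease inhibitors and other proteins needed for implantation.

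The pnd56 cells held 81894 counts in all, with 864 in the shallowest cell, a median of 1670 and 4509 in the deepest. The pnd28 cells held 96248 counts, with a median of 1600 and 3605 in the deepest, and none was shallower than the shallowest pnd56 cell. No label separates animals, so an age is a single sample here and no difference could be tested. A level below is the sum of a gene over the cells of an age in CPM (counts per 1000000 counts). Square brackets give exact 95% intervals that cover counting error at most, with each count taken as independent. A log2 ratio is pnd56 over pnd28, so a positive value means higher at pnd56. The cell titles run in blocks of 96 numbers, and the pnd56 and pnd28 cells fill 1 block each, so age and block cannot be told apart. No cell came close to duplicating another, with log-count correlations of at most 0.54.

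Krt18, a keratin of simple epithelia, had a count in 41 of the 45 pnd56 cells and 44 of the 56 pnd28 cells. Its level was 3602 CPM at pnd56 and 3917 CPM at pnd28, a log2 ratio of −0.12 [−0.35, 0.10]. Epcam, the gene of the sorted protein, had 63 counts at pnd56 and 30 at pnd28. Cells with counts in at least 3 genes of 1 list of stromal, muscle, endothelial, immune, erythroid or mesothelial markers numbered 3 of 45 (6.67%) at pnd56 and 13 of 56 (23.2%) at pnd28. Stroma markers met the rule in 2 pnd56 cells and 8 pnd28 cells. Smooth muscle markers met it in 0 pnd56 cells and 3 pnd28 cells. The part of these cells in the differences below was measured by leaving them out.

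Of the 12479 gene rows, 1797 had at least 20 counts over both ages and were compared. At pnd56, 14.8% of these genes were at least 2-fold higher than at pnd28, and 16.5% were at least 2-fold lower. The median log2 ratio of all 1797 genes was 0.06. Each gene was then recomputed without the cell that held its largest count at its higher age. Without that cell, 9.29% of the genes stayed at least 2-fold higher and 10.4% stayed at least 2-fold lower. Thus 37.2% of the higher calls and 37.4% of the lower calls fell below 2-fold without 1 cell. Genes just past the 2-fold line can be lost in this way even where their counts are spread over many cells. The loss was smaller among genes with at least 50 counts, at 28.7% of the higher and 25.7% of the lower calls, than among genes with 20 to 49 counts, at 42.4% and 41%. The genes called leading below were chosen by their difference without their largest cell, so that they pass this check by construction.

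**Figure D1:**
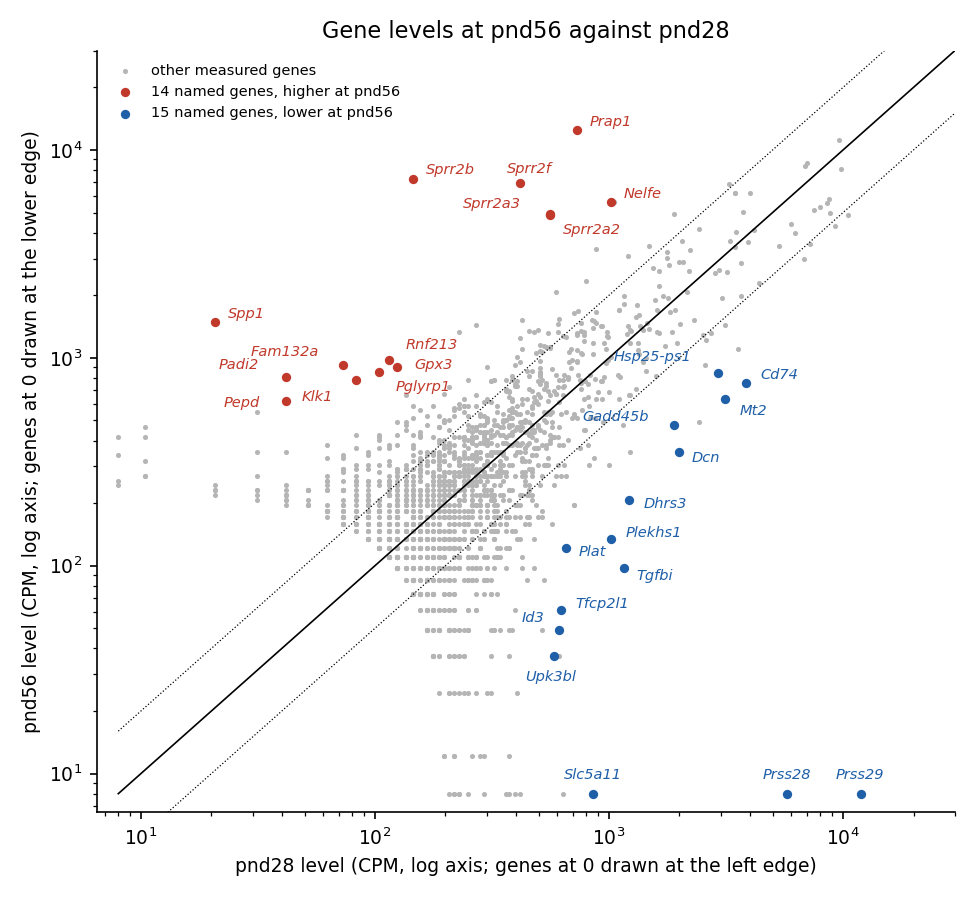
Level at pnd56 (vertical) against pnd28 (horizontal) for the 1797 genes compared, both in CPM on log axes; the solid line marks equal levels, the dotted lines 2-fold differences, and genes at 0 are drawn at the edge. Red points are 14 of the leading genes higher at pnd56, among them Prap1 and Sprr2b, and blue points the 15 leading lower genes, of which Prss29, Prss28 and Slc5a11 lie on the lower edge.

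The genes highest at pnd56 relative to pnd28 were led by the Sprr2 family of small proline-rich proteins, which are cross-linked into the cell envelope of barrier epithelia. Sprr2b reached 7278 CPM [6705, 7886] at pnd56, against 145.5 CPM [79.5, 244.1] at pnd28. Over single cells the lowest, median and highest values were 0, 0.809 and 56.7 counts per 1000 counts of the cell at pnd56, and 0, 0 and 3.10 at pnd28. A count of it was found in 57.8% of pnd56 cells [42.2, 72.3] and 5.36% of pnd28 cells [1.12, 14.9]. The log2 ratio was 5.64 [4.89, 6.52], and 5.36 without the pnd56 cell that held 20.3% of its pnd56 counts. Of the 45 pnd56 cells, 15 stood above every pnd28 cell, 11 had counts within the range of the pnd28 cells, and 19 had none.

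Sprr2f followed the same order with a wider spread of cells. Its level was 6899 CPM [6342, 7492] at pnd56 and 415.6 CPM [296.9, 565.9] at pnd28, a log2 ratio of 4.05 [3.59, 4.55]. Over single cells it ran from 0 through a median of 4.47 to 30.3 counts per 1000 at pnd56, and from 0 through a median of 0 to 5.54 at pnd28. Counts were present in 37 of 45 pnd56 cells and 15 of 56 pnd28 cells. Sprr2a2 and Sprr2a3 had levels of 4872 and 4921 CPM at pnd56, against 561.1 CPM each at pnd28, with log2 ratios of 3.12 and 3.13. Every 30-base word in the last 300 bases of the Sprr2a2 transcripts also occurs in another gene, chiefly Sprr2a1 and Sprr2a3, so these rows cannot be read as separate genes. Without the cells that carried markers of other cell types their log2 ratios were 2.44 and 2.47, and the pnd56 cell with the largest counts of both, 100 and 98, was one of those left out. Sprr2b shared 40.6% of its words with the Sprr2a genes, and Sprr2f shared 0%. Sprr2g, with 1246 CPM at pnd56 and 415.6 CPM at pnd28, was the least different of the 5 measured members, at 1.58 [1.04, 2.15].

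The Sprr2 genes lie in 1 cluster on chromosome 3. The promoters of the most different members are shown because they share an arrangement of 3 short motifs. They are RefSeq windows of GRCm38.p6, 250 bases before to 50 after the annotated start, Sprr2b at chr3:92316455-92316754 and Sprr2f at chr3:92364937-92365236, both on the + strand. Capitals mark, from 5′ to 3′, an AP-1 motif (TGANTCA), an octamer motif (ATGCAAAT, here on the other strand) and a TATA motif (TATAAA), each searched on both strands with no overlap between them.
Sprr2b: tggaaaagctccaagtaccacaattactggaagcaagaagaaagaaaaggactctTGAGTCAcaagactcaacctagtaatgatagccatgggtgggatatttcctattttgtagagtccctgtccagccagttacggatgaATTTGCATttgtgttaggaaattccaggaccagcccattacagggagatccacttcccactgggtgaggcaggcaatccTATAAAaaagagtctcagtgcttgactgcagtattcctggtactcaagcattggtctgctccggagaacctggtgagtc
Sprr2f: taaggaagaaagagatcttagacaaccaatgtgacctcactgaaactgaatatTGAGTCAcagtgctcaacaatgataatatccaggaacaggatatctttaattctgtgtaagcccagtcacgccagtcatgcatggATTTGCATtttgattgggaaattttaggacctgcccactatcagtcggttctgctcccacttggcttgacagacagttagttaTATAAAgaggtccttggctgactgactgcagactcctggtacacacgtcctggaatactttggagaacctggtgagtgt
TATAAA began 29 bases before the start in both. The octamer began 79 bases before TATAAA in Sprr2b and 83 in Sprr2f, and TGANTCA began 87 and 85 bases before the octamer. Over all 32851 promoters of the table, TATAAA was found in 13.6%, TGANTCA in 7.81% and the octamer in 1.74%. Only 16 of them held all 3, and 7 of these belonged to the 10 Sprr2 promoters in the table (Sprr2b, Sprr2d, Sprr2e, Sprr2f, Sprr2h, Sprr2i and Sprr2k). Members whose windows held the motifs were found at high and at low levels, since Sprr2d had 6 counts at pnd56 and 0 at pnd28 and Sprr2e had 1 and 0. The windows of Sprr2a2 and Sprr2a3, at 4872 and 4921 CPM at pnd56, held none of the 3. By their sequence these windows end before the position that matches TATAAA in Sprr2b. The absence of TATAAA from them is therefore fixed by where they end and cannot be read. The palindromic oestrogen response element (GGTCA and TGACC with 3 bases between) was in none of the 4 windows of Sprr2b, Sprr2f, Sprr2a2 and Sprr2a3, which says only that these letters are absent there.

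Secreted proteins formed the second set of genes that were higher at pnd56. Prap1, a proline-rich acidic protein secreted by uterine epithelium, had 1017 counts at pnd56 and 70 at pnd28. Its levels of 12418.5 CPM at pnd56 and 727.3 CPM at pnd28 gave a log2 ratio of 4.09 [3.74, 4.46]. The pnd56 cells ran from 0 through a median of 5.78 to 94.7 counts per 1000, and the pnd28 cells from 0 through 0 to 5.95. Without the pnd56 cell that held 24.8% of the pnd56 counts the log2 ratio was 3.73. Prap1 was present in 86.7% of pnd56 cells [73.2, 94.9] and 30.4% of pnd28 cells [18.8, 44.1].

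Spp1 (osteopontin), a secreted ligand of integrins, had the largest ratio of the leading higher genes but rested on few cells. It had 1490 CPM in 17 pnd56 cells, against 20.8 CPM from 2 counts in 1 pnd28 cell, and the log2 ratio of 6.16 [4.28, 9.23] was 5.47 without the pnd56 cell that held 39.3% of its counts. Klk1, tissue kallikrein, had 64 counts in 11 pnd56 cells and 8 counts in 3 pnd28 cells, and 32.8% of its 3′ words also occur in other kallikrein genes. Pglyrp1, an antibacterial protein that binds peptidoglycan, had 70 counts at pnd56 and 10 at pnd28, a log2 ratio of 3.04 [2.08, 4.16]. Gpx3, a secreted glutathione peroxidase, had 74 and 12 counts, at 2.86 [1.97, 3.87]. Fam132a (C1qtnf12), which encodes the secreted protein adipolin, had 76 and 7 counts, at 3.67 [2.56, 5.04]. All 4 kept log2 ratios of at least 2.63 without their largest pnd56 cell.

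The other leading genes described here work inside the cell. Padi2, which converts arginine in proteins to citrulline, had 66 counts at pnd56 and 4 at pnd28, a log2 ratio of 4.28 [2.85, 6.20]. Pepd, the dipeptidase that releases proline, had 51 and 4 counts, and it was the most evenly spread of the 15, with no more than 4 counts in any of its 23 pnd56 cells. Rnf213, an interferon-induced ubiquitin ligase, had 80 and 11 counts. Nelfe, a subunit of the negative elongation factor of RNA polymerase II, had 5617 CPM at pnd56 and 1018 CPM at pnd28, at 2.46 [2.15, 2.79]. Nelfe lies within 2000 bases of Cfb on the other strand, whose own row had 18 and 20 counts. Prap1, Padi2, Rnf213, Pepd, Klk1 and Sprr2a2, and among the lower genes Tfcp2l1, Mt2 and Hsp25-ps1, each overlap an annotated gene on the other strand, and the labels do not say whether the authors counted by strand.

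**Figure D2:**
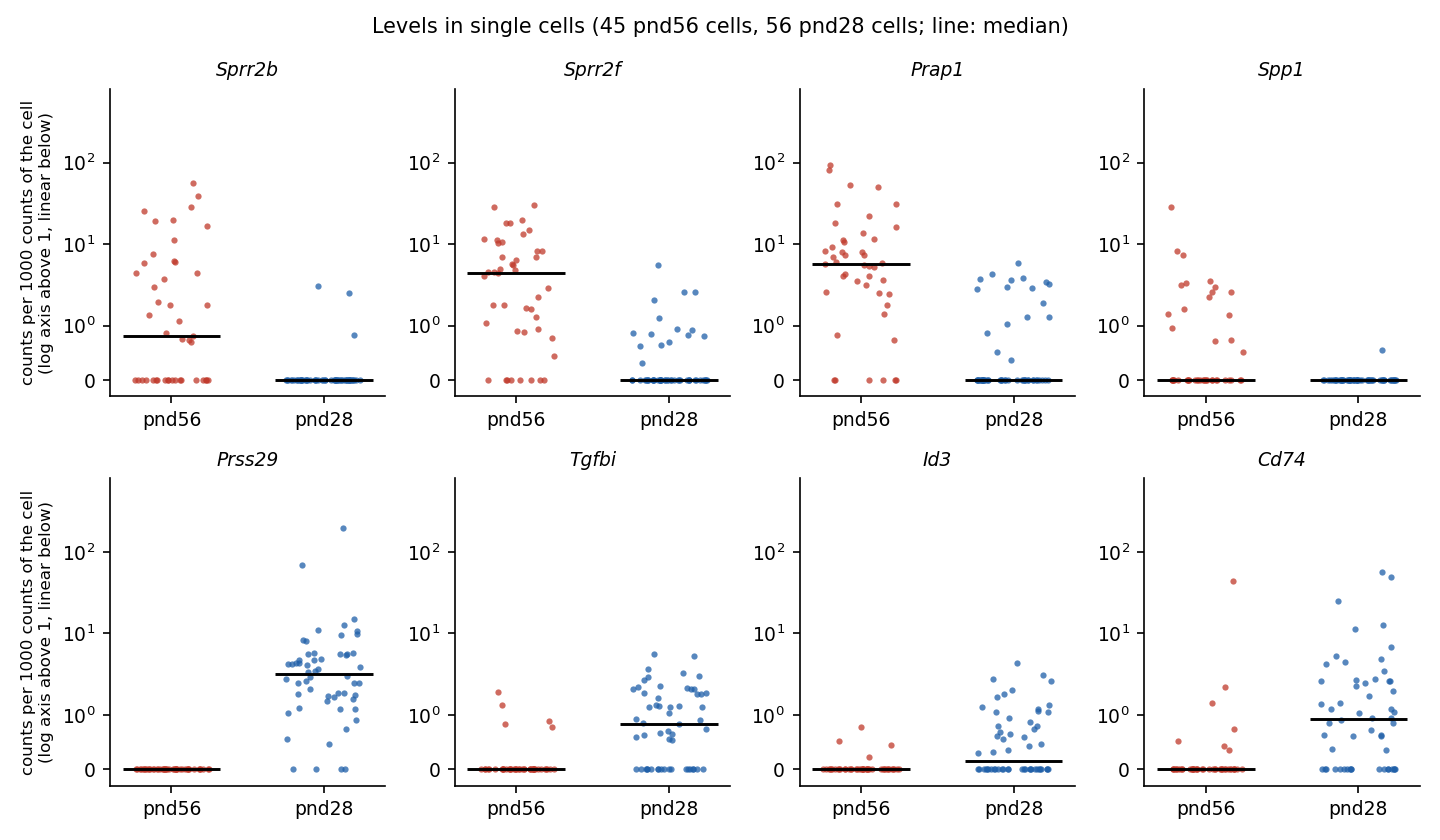
Counts per 1000 counts of the cell (symmetric log axis, linear below 1) for 8 genes in each of the 45 pnd56 cells (red, left) and 56 pnd28 cells (blue, right); bars are medians. Sprr2f and Prap1 had medians of 4.47 and 5.78 at pnd56 and 0 at pnd28, Prss29 was 0 in every pnd56 cell, and 1 pnd56 cell of Cd74 stands at 43.4.

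The 15 leading higher genes took 5.08% of all counts at pnd56 and 0.430% at pnd28. A pnd56 cell had counts in 1 to 14 of them, with a median of 9, and a pnd28 cell in 0 to 9, with a median of 2. The ranges of single cells therefore overlapped, although the medians were far apart. Because the genes were picked for their difference between these same cells, the gap follows from the choice. Within the 45 pnd56 cells the leading genes did not all go together. Levels of Sprr2b correlated with those of Sprr2a3 (Spearman rho 0.76) and Nelfe (0.71). Sprr2b shares 40.6% of its 3′ words with the Sprr2a genes, and the part of shared reads in the 0.76 was not tested. Levels of Prap1 correlated with those of Gpx3 (0.61) and Fam132a (0.56), whereas Prap1 and Sprr2a3 gave −0.40 and Sprr2a3 and Klk1 −0.48. Pairs across these groups also went the other way, with Prap1 and Sprr2f at 0.35 and Spp1 and Sprr2f at 0.26, close to the 0.40 of Sprr2b and Sprr2f. The values are shares of the same small totals per cell and are given as a description, for pairs picked after their values were seen. Taking Sprr2b, Sprr2f, Sprr2a3 and Nelfe as one set and Prap1, Spp1, Gpx3, Klk1 and Fam132a as another, 10 pnd56 cells were above the median of both, 12 of the Sprr2 set only, 12 of the Prap1 set only and 11 of neither.

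The genes lowest at pnd56 relative to pnd28 were led by the gland proteases Prss29 and Prss28, the implantation serine proteinases of the mouse uterus. Neither had a count in any of the 45 pnd56 cells, where the exact upper limit of a count of 0 is 45.04 CPM. At pnd28 Prss29 stood at 11886 CPM and Prss28 at 5787 CPM. A single pnd28 cell held 58.6% of the counts of Prss29 and 69.7% of those of Prss28. Set against a floor of 3 counts over the pnd56 cells, the log2 ratio of Prss29 was −8.34, and −7.12 without that cell, while the upper ends of the exact intervals were −8.04 and −6.82. For Prss28 the values at the floor were −7.30 and −5.63, with upper ends of −7.0 and −5.32. The other pnd28 cells were not empty, with a median of 3.20 counts of Prss29 per 1000 over all 56.

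Prss29 was counted in 52 of the 56 pnd28 cells, and this share is not read as the share of cells expressing it. All 3 pnd28 cells with smooth muscle markers, of a median of 1339 counts, had it, as did 92.5% of the other 53 cells, of a median of 1609 counts. Its level was 6285 CPM in those 3 cells and 12128 CPM in the others. The others include the cell that held 58.6% of its counts, so the gap between these 2 levels rests on that cell and is not read. Prss28 was found in 2 of the 3 and 62.3% of the others. Slc5a11, a cotransporter of sodium and myo-inositol, had 0 counts at pnd56 and 82 in 23 pnd28 cells, was in 0 of the 3 muscle-marker cells, and stood at a log2 ratio of −4.54 at the floor of 3 counts, with an upper end of −4.21, or −4.40 and −4.06 without its largest cell.

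The genes of the 2 proteases are neighbours on chromosome 17, and their promoters are shown as a pair because both genes had their highest level at pnd28 and 0 counts at pnd56. The RefSeq windows are Prss28 at chr17:25308396-25308695 and Prss29 at chr17:25318404-25318703, both on the + strand of GRCm38.p6, with TATAAA in capitals.
Prss28: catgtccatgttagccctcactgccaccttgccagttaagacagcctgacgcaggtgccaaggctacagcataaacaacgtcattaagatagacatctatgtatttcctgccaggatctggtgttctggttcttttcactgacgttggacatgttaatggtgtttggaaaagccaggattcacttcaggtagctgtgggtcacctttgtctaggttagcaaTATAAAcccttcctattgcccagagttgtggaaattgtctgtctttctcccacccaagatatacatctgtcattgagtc
Prss29: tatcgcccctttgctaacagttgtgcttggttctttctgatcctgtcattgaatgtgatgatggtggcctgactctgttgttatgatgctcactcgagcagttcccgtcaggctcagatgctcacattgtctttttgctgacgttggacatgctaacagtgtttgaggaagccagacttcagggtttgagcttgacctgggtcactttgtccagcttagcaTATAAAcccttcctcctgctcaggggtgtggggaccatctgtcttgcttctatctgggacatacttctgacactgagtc
TATAAA began 29 bases before the start in both. Aligned end to end, 63.4% of 309 columns were identical, close to the 63.1% of 312 columns for Sprr2b and Sprr2f. Pairs of an Sprr2 and a protease window aligned in the same way gave 43.7% to 50.6%. Of the longest runs shared by the protease pair, the 15 bases ctgacgttggacatg began 83 bases before TATAAA in Prss28 and 84 in Prss29. Another shared run of the same length takes in TATAAA itself. Neither window held TGANTCA, the octamer or the oestrogen response element. The 3′ ends of Prss28 and Prss29 shared no 30-base word with any other transcript, so their counts can be read separately.

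Tgfbi, a matrix protein induced by TGF-beta, had a level of 97.7 CPM [42.2, 192.5] at pnd56, against 1153 CPM [948.7, 1389] at pnd28. In single cells it ran from 0 through a median of 0 to 1.94 counts per 1000 at pnd56, and from 0 through 0.841 to 5.63 at pnd28. Only 5 of 45 pnd56 cells had a count, against 37 of 56 at pnd28, and the log2 ratio was −3.56 [−4.81, −2.53] or −3.41 without its largest cell. Id3, an inhibitor of helix-loop-helix factors and a target of BMP signalling, had 4 counts at pnd56 and 59 at pnd28, at −3.65 [−5.57, −2.22]. Tfcp2l1, a transcription factor of the grainyhead family, had 5 and 60 counts, at −3.35 [−5.03, −2.05]. No single pnd28 cell held more than 9 counts of Id3 or Tfcp2l1.

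Dhrs3, which reduces retinal to retinol, had 207.6 CPM at pnd56 and 1216 CPM at pnd28, a log2 ratio of −2.55 [−3.38, −1.81]. Plat, tissue plasminogen activator, had 10 and 63 counts, at −2.42 [−3.55, −1.45]. Mt2, a zinc-binding metallothionein, had 52 and 300 counts, at −2.30 [−2.75, −1.87]. Gadd45b, a stress-induced gene, had 476.2 CPM and 1891 CPM, at −1.99 [−2.53, −1.48]. Hsp25-ps1 is a pseudogene that shares 80.1% of its 3′ words with Hspb1, a small heat shock protein gene, and the log2 ratios of the rows were −1.79 and −1.69. Upk3bl, a uroplakin-like membrane protein gene, had 3 counts at pnd56 and 56 at pnd28. Plekhs1, a gene with a pleckstrin homology domain, had 11 and 98 counts, at −2.92 [−3.97, −2.02].

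For 2 of the leading lower genes the pnd56 level itself came from 1 cell. Cd74, which encodes the chaperone of MHC class II molecules, had 62 counts at pnd56 and 371 at pnd28, a log2 ratio of −2.35 [−2.76, −1.96]. A single pnd56 cell held 52 of the 62, and without it the log2 ratio was −4.96. Among cells with a Krt18 count it was −5.05, and without the cells that carried markers of other types it was −1.38. Dcn (decorin), a matrix proteoglycan of stroma, had 354.1 CPM at pnd56 and 1984 CPM at pnd28, and 24 of its 29 pnd56 counts were in 1 cell. Its log2 ratio was −2.49 [−3.10, −1.92], −4.94 without that pnd56 cell and −3.96 without the marker-carrying cells. Dcn was found in all 3 muscle-marker cells and in 56.6% of the other pnd28 cells. The direction held in each of these settings, and the size did not.

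The 15 leading lower genes took 0.377% of counts at pnd56 and 3.81% at pnd28. A pnd56 cell had counts in 0 to 5 of them, with a median of 2, and a pnd28 cell in 4 to 14, with a median of 9. Only cells with 4 or 5 of the genes were found at both ages. The genes were picked for their difference between these same cells, so this separation follows from the choice and is no separate evidence.

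**Figure D3:**
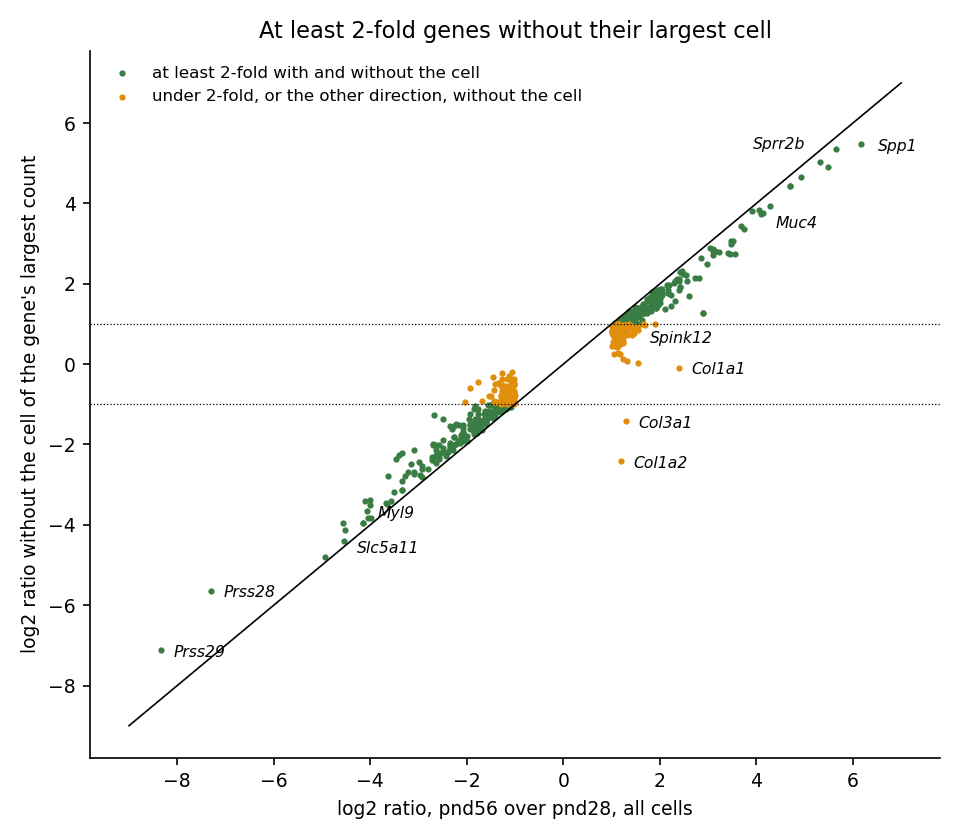
Log2 ratio, pnd56 over pnd28, without the cell of a gene's largest count at its higher age (vertical) against the ratio with all cells (horizontal), for the at least 2-fold genes that keep a ratio; dotted lines mark 2-fold differences. Green genes stay at least 2-fold in the same direction, and the 3 collagens Col1a1, Col1a2 and Col3a1 fall below 0 although they were above 1.

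The check on single cells changed the direction of 3 genes, all collagens higher at pnd56. Col1a2 had 78 counts at pnd56 and 40 at pnd28, a log2 ratio of 1.20, and it was −2.42 without the pnd56 cell that held 72. Col3a1 had 63 and 30 counts, with 54 in the same cell, a log2 ratio of 1.30, and −1.42 without it. Col1a1 had 18 and 4 counts, with 15 in it, and stood at −0.10 without it. This was the deepest pnd56 cell, with 4509 counts, and it also held the largest pnd56 counts of Sprr2a2, Sprr2a3 and Spink12. None of the lower genes changed direction.

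A further group had many counts yet stood close to the 2-fold line, so that removing 1 cell took them below it. On the higher side these were Cbr2, a carbonyl reductase, with 6826 CPM at pnd56 and 3252 CPM at pnd28 (log2 ratio 1.07, and 0.94 without the cell), Lad1, Dus1l and Gps1. Dus1l and Gps1 are neighbours with 92 counts each at pnd56 and 54 each at pnd28, so they count as 1 observation. Spink12, a Kazal-type inhibitor of proteases, depended on single cells most, with 73 of its pnd56 counts in 1 cell, or 38.2%, and 46 of its 77 pnd28 counts in 1 cell. Its log2 ratio was 1.54 [1.15, 1.94], 0.93 without the pnd56 cell and 2.83 without the pnd28 cell alone. On the lower side the genes were Prex2 (−1.03, and −0.99 without the cell), Egr1, Tmem176a, Xist and Dnaja1, of which Tmem176a and Xist moved most, to −0.81 each. At 9 higher genes and 17 lower genes, 1 cell held more than 50% of the counts of the higher age.

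Genes of known pathways were then read as lists, set against the 14.8% of all compared genes that were at least 2-fold higher and the 16.5% that were lower. The lists and their members were chosen with earlier results of these data known. Their shares are therefore a description and no test of enrichment. The lists overlap, since 70 of their genes are in more than 1. Of the 13 measured oestrogen-responsive genes, 10 were at least 2-fold higher and 0 lower, with a median log2 ratio of 1.91. Of these, 5 are Sprr2 rows, among which Sprr2a2 and Sprr2a3 cannot be read as separate genes and count as 1 observation. Outside that family, Muc4, a membrane mucin, had 45 counts at pnd56 and 3 at pnd28, at 4.14 [2.50, 6.47]. Muc1, a membrane mucin of the lumen, had 2064 CPM at pnd56 and 592.2 CPM at pnd28, at 1.80 [1.36, 2.26]. Car2, carbonic anhydrase, had 3321 CPM and 883.1 CPM, at 1.91 [1.55, 2.28]. Complement C3 had 20 counts at pnd56 and 4 at pnd28, at 2.55 [0.98, 4.56], and Wnt4, a secreted signal, had 19 and 6 counts, at 1.90 and 0.996 without its largest cell.

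The other 3 measured members differed less. Ltf, the classic oestrogen-induced secretory gene of the mouse uterus, had 2882 CPM at pnd56 and 2068 CPM at pnd28, at 0.48 [0.20, 0.76], and was in 48.9% of pnd56 cells and 62.5% of pnd28 cells. Clu (clusterin) stood at 0.11 [−0.21, 0.43] and Car12 at −0.21 [−0.97, 0.53]. Esr1, the oestrogen receptor itself, had 42 counts at pnd56 and 36 at pnd28, at 0.46 [−0.22, 1.14], with 22 cells holding a count at each age. Of 13 measured secretory and antimicrobial genes, 8 were at least 2-fold higher, namely Prap1, Spp1, Klk1, Muc1, Muc4, C3, Wfdc18 and Napsa, and 0 were lower. The most abundant of them at pnd28, Wfdc2, a whey acidic protein with an antiprotease domain, lay on the other side without reaching 2-fold, with 4994 CPM at pnd56 and 8759 CPM at pnd28, at −0.81 [−0.98, −0.64].

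**Figure D4:**
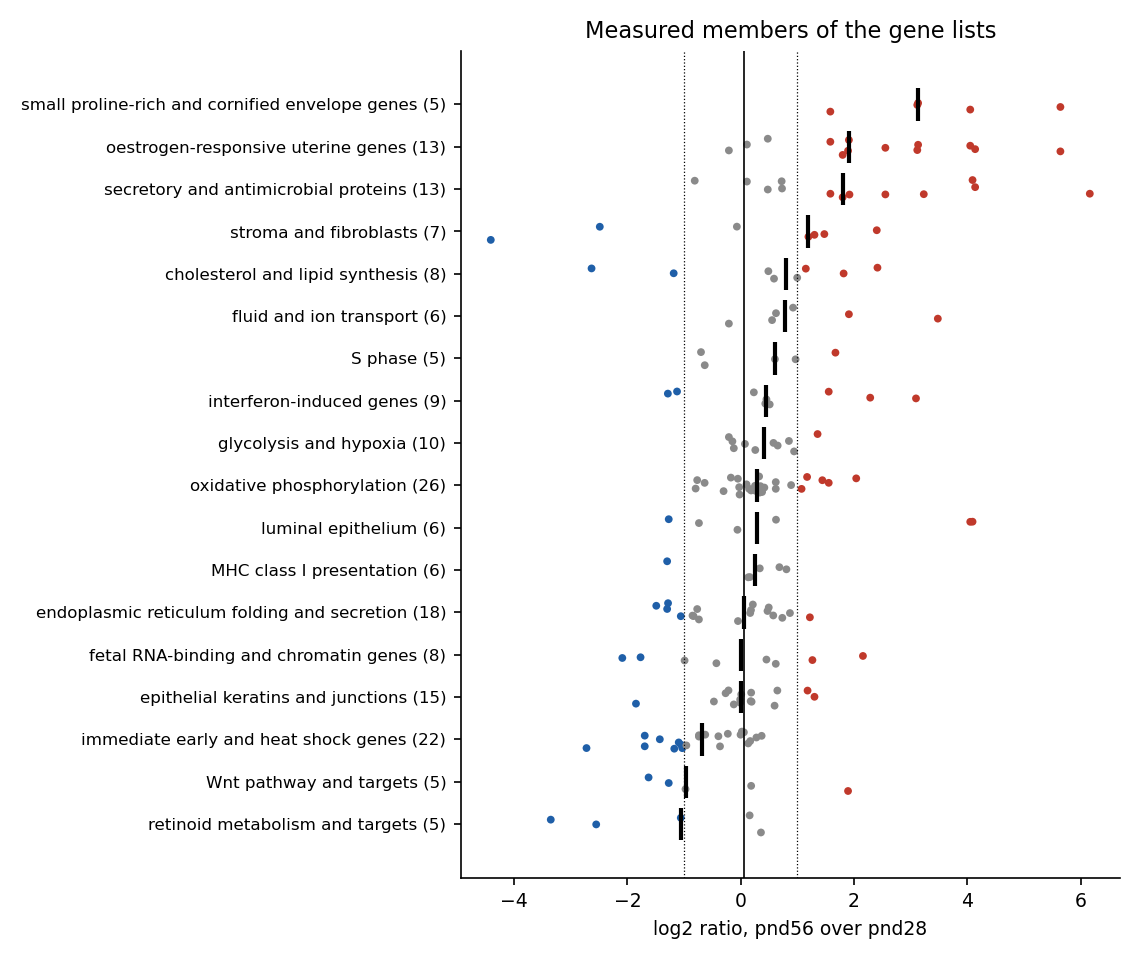
Log2 ratio, pnd56 over pnd28, of each measured member of the 18 lists with at least 5 such members (number in brackets); black bars are list medians, the thin solid line the median of all 1797 genes (0.06), and dotted lines 2-fold differences, with red points at least 2-fold higher and blue points at least 2-fold lower. Sprr2, oestrogen-responsive and secretory genes lie highest, and the Wnt, retinoid and immediate early lists lie lowest.

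Of 22 measured immediate early and heat shock genes, 8 were at least 2-fold lower at pnd56 and 0 higher, with a median of −0.68. Together they took 2.19% of counts at pnd56 and 3.71% at pnd28. Over single cells the share ran from 0.935% through a median of 2.13% to 3.30% at pnd56, and from 1.23% through 3.73% to 7.36% at pnd28. Fos, the most abundant, had 4310 CPM in 40 pnd56 cells and 9195 CPM in all 56 pnd28 cells, at −1.09 [−1.28, −0.91]. Fosl1, another Fos family factor, had 4 and 31 counts, at −2.72 [−4.68, −1.22]. Hspb1 had 1099 CPM at pnd56 and 3553 CPM at pnd28, and Mcl1, an inhibitor of apoptosis, had 25 and 79 counts. Among the other members, Jun stood at −0.23 [−0.93, 0.46], Jund at 0.28 [−0.09, 0.65] and Hsp90aa1 at 0.00 [−0.49, 0.48]. Without their largest cell 5 of the 8 stayed at least 2-fold lower. How the cells of each age were dissociated is not given in the labels, and its part in these genes was not tested.

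Of 5 measured retinoid genes, 3 were at least 2-fold lower, at a median of −1.06, namely Dhrs3, the fatty acid and retinoic acid binding gene Fabp5, and Cyp26a1, which breaks down retinoic acid. Cyp26a1 had 0 counts at pnd56 and 36 in 7 pnd28 cells. Fabp5 stood at −0.90 without its largest cell, so that 2 of the 3 kept 2-fold. The median of the list was −0.19 over 12 genes with no minimum count and −1.86 with every cell weighted equally. All 4 measured members of the Notch, Hedgehog, FGF and BMP list were at least 2-fold lower, and these were Id3, Id1 with 16 counts at pnd56 and 68 at pnd28, the inhibitory Smad7 with 5 and 26, and the receptor Tgfbr1 with 5 and 16. Tgfbr1 stood at −0.92 without its largest cell and the other 3 kept 2-fold. The 5 Wnt genes had a median of −0.97, and −0.48 without each gene's largest cell.

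MHC class II genes were few and patchy. Beside Cd74, H2-Eb1 had 11 counts at pnd56, all in 1 cell, and 46 counts in 6 pnd28 cells. H2-Ab1 had 25 counts in 2 pnd56 cells and 58 counts in 12 pnd28 cells, at −0.98 [−1.72, −0.28]. Immune marker genes took 0.0440% of counts at pnd56 and 0.0551% at pnd28, and immune markers met the rule for marker-carrying cells in 0 pnd56 cells and 2 pnd28 cells. Leaving out all marker-carrying cells moved the log2 ratio of Cd74 to −1.38, as given above. Of 6 measured class I genes, 0 were at least 2-fold higher and 1 was lower, Pdia3, a disulphide isomerase, with 9 counts at pnd56 and 26 at pnd28, and the median was 0.25. H2-D1 stood at 2711 CPM at pnd56 and 1548 CPM at pnd28, with a log2 ratio of 0.81 [0.50, 1.12]. Of 9 measured interferon-induced genes, 3 were at least 2-fold higher (Rnf213, Ifi35 and Stat2) and 2 lower (Ifitm1 and Irf1), with a median of 0.46. Ifitm1 had 1441 CPM at pnd56 and 3138 CPM at pnd28, and Ifi35 had 659.4 and 135.1 CPM.

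The metabolic lists had medians above the 0.06 of all genes, at 0.29 for oxidative phosphorylation, 0.42 for glycolysis and 0.79 for cholesterol synthesis. Of 26 measured genes of oxidative phosphorylation, 5 were at least 2-fold higher and 0 lower, a share of members close to that of all genes on the higher side, with a median of 0.29. They were led by Cox5b, a cytochrome oxidase subunit, at 35 counts at pnd56 and 10 at pnd28. In glycolysis 1 of 10 was at least 2-fold higher, Ldha, lactate dehydrogenase, with 3089 CPM at pnd56 and 1205 CPM at pnd28, at 1.36 [1.04, 1.69], and Gapdh stood at 0.85 [0.65, 1.06]. Cholesterol synthesis was mixed, with Hmgcs1 and Mvk among the members at least 2-fold higher and Pmvk and Elovl5 the members at least 2-fold lower. The median of its 8 measured genes fell to 0.38 without each gene's largest cell. With each cell thinned to 1000 counts it was 0.11 over 5 genes. Pmvk, phosphomevalonate kinase, had 7 counts at pnd56 and 51 at pnd28, at −2.63 [−4.02, −1.49].

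Keratins and junction genes had a median of 0.01 over 15 members, with Epcam (1.30) and Cldn7 (1.18) higher and Cldn10 lower, at 13 counts at pnd56 and 55 at pnd28. Genes of DNA replication had a median of 0.60 over 5 members, with 1 at least 2-fold higher (Mcm5), and none of the genes of the G2 and M phase list reached 20 counts. The stroma list had a median of 1.20 over 7 genes, and −0.76 over 6 genes without each gene's largest cell at its higher age. The cell left out differs between genes, and the list was not recomputed without the collagen-rich cell alone. The 3 measured smooth muscle genes were lower at pnd56, with 0.0147% of counts in the whole list at pnd56 and 0.150% at pnd28, and Myl9 and Cnn1 were at 0 in all pnd56 cells.

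The leading genes were followed through all 5 ages. All 15 higher genes had their highest level at pnd56. Sprr2b stood at 15.4, 64.1, 8.47, 145.5 and 7278 CPM from pnd0 to pnd56, and Prap1 at 44.6, 61.4, 11.3, 727.3 and 12418.5 CPM. Sprr2f, Prap1 and the Sprr2a rows were already above their pnd0 to pnd14 levels at pnd28, whereas Pepd, Fam132a and Rnf213 were at their lowest there. Of the 15 lower genes, 11 had their highest level at pnd28 and 12 their lowest at pnd56. Prss29 stood at 1.72, 20.5, 2.82, 11886 and 0 CPM over the 5 ages. Id3 stood at 937.2, 755.8, 576.2, 613 and 48.8 CPM, so that its pnd28 level lay within the range of the 3 earlier ages. Tgfbi stood at 221.4, 668.5, 980.1, 1153 and 97.7 CPM.

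**Figure D5:**
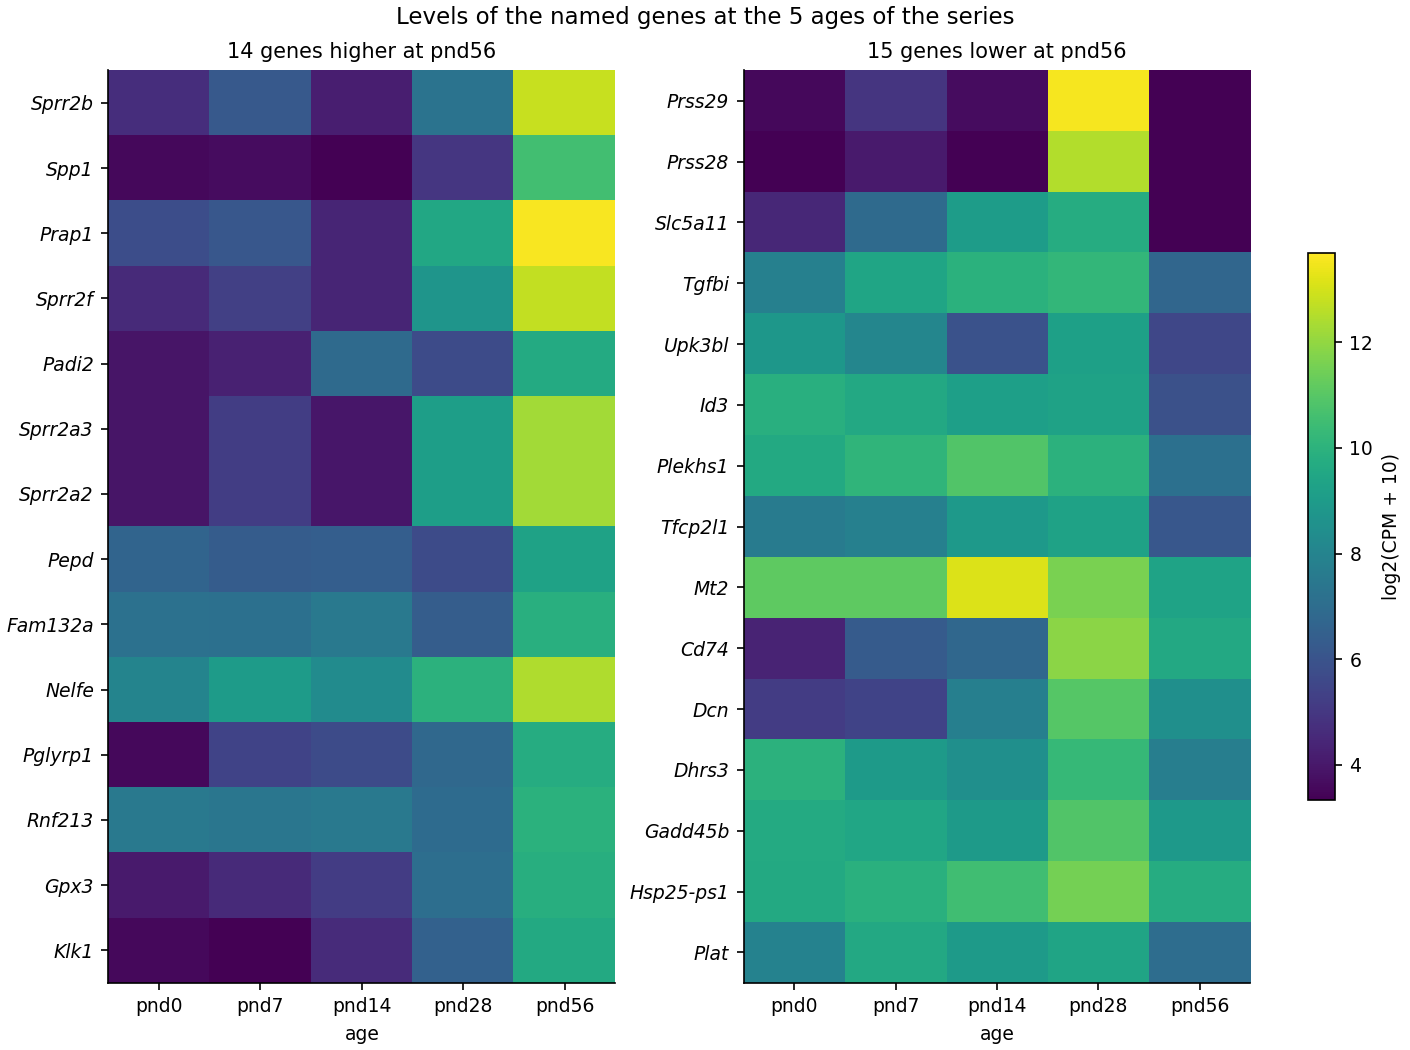
Level of the leading genes at the 5 ages of the series, as log2(CPM + 10) in colour, with 14 genes higher at pnd56 in the left panel and the 15 lower genes in the right. The right-hand column of the left panel is the brightest in every row, and Prss29 and Prss28 are bright at pnd28 alone.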

How the data were processed

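Single cells from 5 ages had been prepared by CEL-seq, per the labels' protocols. The values the authors deposited are whole-number counts, 1 row for each gene and 1 column for each cell. The submitters' processing notes list TopHat, Cuffnorm and the build mm9, with no role for any of them. Neither the labels nor the table say whether molecular identifiers were collapsed. The intervals take each count as independent, and are too narrow even for counting error if the counts include amplified copies. The table has 0 rows for ribosomal protein or mitochondrially encoded genes.

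Counts were summed over the cells of each age and divided by the total (pandas 2.3.3, scipy 1.17.1). Levels have exact Poisson intervals, ratios have exact intervals from the binomial split of a gene's counts, and shares of cells have Clopper-Pearson intervals. A gene at 0 in 1 age was set to a floor of 3 counts there, its exact interval being wider than the floor, and no ratio was made where both ages had 3 or fewer. No doublet caller was run. The ratio script was checked on simulated counts.

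Leading genes needed at least 50 counts and a count in at least 20% of cells of the higher age. They were ranked by the interval bound nearest to 0 without their largest cell, 15 in each direction. A further 5 in each direction were the genes with most counts that fell below 2-fold without that cell. Members of the 36 lists were named as well. One of the leading higher genes is not reported here by name, though it stays in the counts and sums. The members and lists were chosen with earlier results of these data known, and motifs, gene pairs and the collagen genes were picked after their values were seen. Promoters are those of RefSeq, GRCm38.p6, matched by symbol, and 30 of the 40 genes named by the rule had one. Neighbours and shared 3′ words come from GENCODE M21, used for names only since its build differs from the authors'.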

Additional observations from a re-analysis of the deposited data

How the results depend on the processing

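The 15 leading higher and 15 leading lower genes kept their direction and at least a 2-fold difference under each of the 6 alternatives run on single genes. For the alternative without the largest cell this was fixed by the way the genes were chosen. Median-of-ratios scaling moved every log2 ratio by the same 0.09, too little to bring any of these genes below 2-fold. The remaining alternatives reuse the same cells, on genes picked for large differences between them, so keeping 2-fold there is weak evidence. The calls are given as percentages of the genes compared, and were judged to have moved where the number of genes differed by more than 1.5 times. With at least 100 counts over both ages, which left 14.5% as many genes, 17.2% were at least 2-fold higher and 10.3% lower (45 and 27 genes), and 12.6% and 8.43% stayed so without 1 cell (33 and 22 genes). With no minimum beyond more than 3 counts in 1 age (4696 genes), these were 17.2% and 23.1% (810 and 1084 genes), with 7.30% and 10.03% without 1 cell. With each cell thinned to 1000 counts (43 pnd56 and 52 pnd28 cells), which left 53.1% as many genes, they were 16.6% and 12.3%, with 11.2% and 8.80%. Counting every gene without the cell of its largest count gave 9.66% higher and 10.9% lower. Higher genes made up 47.2% of all calls, 62.5% with the minimum of 100 and 57.6% after thinning, and the cause was not tested. Median-of-ratios scaling shifted the median of all genes by 0.09 and put the higher share at 53.9%. The median of the stroma list reversed to −0.76 without each gene's largest cell, which was 1 pnd56 cell for the collagens and a pnd28 cell for Dcn. Of the alternative values of list medians, 9 moved, those of the retinoid list to −0.19 and −1.86 among them, and 1 reversed. Spink12 lay between 0.55 and 0.93 under 4 alternatives. No paired analysis was possible because each age is 1 sample. Depth limits genes under 20 counts, which were not compared.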

Other observations

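Genes below 50 counts, picked here after their values were seen, included several spread over many cells. Gdpd5, a glycerophosphodiester phosphodiesterase gene, had 34 counts in 13 pnd56 cells and 1 count at pnd28, a log2 ratio of 5.32, and Oasl1, of the interferon-induced oligoadenylate synthetase-like family, had 38 counts in 11 pnd56 cells and 1 at pnd28, at 5.48 and at 4.91 without its largest cell. Unc5cl had 34 counts in 12 pnd56 cells and 0 at pnd28. In the other direction, Acaa2, a thiolase of mitochondrial fatty acid oxidation, had 1 count at pnd56 and 36 in 18 pnd28 cells, at −4.94. Orc5, a subunit of the origin recognition complex, had 2 counts at pnd56 and 39 in 20 pnd28 cells, at −4.05.

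Some large ratios belonged to 1 cell altogether. Il7, a cytokine gene, had 21 counts in 1 pnd56 cell and 0 at pnd28. Astx1c, Astx4a, Astx4b and Astx4d had 35, 24, 38 and 21 counts in 1 pnd28 cell and 0 at pnd56, and that cell held the largest count of 6.06% of the lower genes, Thy1 and Mmp2 among them.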
